A study of Homo sapiens with 4 samples.

Results

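The antioxidant and iron-storage genes GCLC, GCLM, HMOX1, NQO1, TXNRD1, SRXN1, GPX4, AIFM2, FTH1 and FTL were followed in SK-MEL-28 and A375 cells after knockdown of the long noncoding RNA LINC00622. They were chosen by gene name, and all 10 were found among the 17755 genes of the table. SK-MEL-28 and A375 are established human melanoma cell lines. Each was transfected either with siNC, a control siRNA, or with siLINC00622, which targets LINC00622, and this gives 4 groups of 1 library each: SK-MEL-28 siNC, SK-MEL-28 siLINC00622, A375 siNC and A375 siLINC00622. The 4 groups shared 6 h of transfection in medium without serum and 24 h in medium with serum, and the siRNA used for the sequenced cells is not identified further in the labels. Because each condition is a single library, a ratio within a line had no replicate check.

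NRF2, encoded by NFE2L2, is a transcription factor that KEAP1 marks for degradation in unstressed cells. When KEAP1 is modified by oxidants or electrophiles, NRF2 accumulates, pairs with a small MAF protein and binds antioxidant response elements, while BACH1 competes for the same elements as a repressor. Its known targets make glutathione, reduce thioredoxin and quinones, degrade heme and store iron in ferritin. Ferroptosis is a form of cell death driven by iron-dependent peroxidation of membrane lipids, and melanoma cells are known to differ in their sensitivity to it with their state of differentiation.

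The library totals were between 31269923 and 36384819 counts. LINC00622, the targeted gene, had 309 and 135 counts in SK-MEL-28 cells and 135 and 86 in A375, where the siNC library is given first here and in what follows. Both libraries labelled siLINC00622 therefore held fewer counts of the target than their control, with log2 ratios of -1.21 and -0.84 after scaling. The A375 siLINC00622 library was the deepest, and its effective size exceeded that of A375 siNC by 0.21 on the log2 scale, so a gene with slightly more counts there can have a ratio below 0. The melanocyte lineage markers MITF, SOX10, PMEL, MLANA, TYR, TYRP1, DCT and S100B were all listed, with a summed level of 8644 and 9076 CPM in the SK-MEL-28 libraries and of 548 and 675 CPM in the A375 libraries. TYR, the key enzyme of melanin synthesis, had 8952 and 10452 counts in SK-MEL-28 but 17 and 22 in A375. Of the markers of other cell types, 0 of 3 leukocyte and 0 of 3 endothelial genes were listed, and the 2 listed keratinocyte genes of 4, KRT10 and KRT14, summed to between 41.3 and 70.7 CPM. KRT14 had 494 and 504 counts in A375 and 6 and 2 in SK-MEL-28.

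The sequences that bear on these genes are the designed siRNA targets and the promoters of members that carry an antioxidant response element core. The target sequences of both LINC00622 siRNAs are printed with the bases that pair with positions 2 to 8 of the guide strand in capitals.
siLINC00622_1: ccctaaagaaaGTGAGAAa
siLINC00622_2: ggcaacctctaATTGACTt

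In the longest protein-coding GENCODE 29 transcript of each member, the longest stretch shared with a target was between 5 and 9 bases. These lengths were not compared with those of other genes. The 7 capital bases of siLINC00622_1 were present in 1 of the 10 members, GCLC, and in 28.5% of the 12197 listed genes with such a transcript. Those of siLINC00622_2 were present in 1 member, AIFM2, and in 19.2% of the genes. These matches are a description of the letters and not evidence of binding.

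RefSeq promoter windows, from 250 bases before to 50 after each start in GRCh38.p14, were at hand for 8 of the 10 members, in 11 windows. They were searched on both strands for the element core TGACNNNGC, which overlaps the AP-1 motif in some of its forms. HMOX1 and FTH1 had no window and were not searched, and neither were bases outside the windows of the other members. The core was present in 4 windows of 3 members (GCLM, AIFM2 and TXNRD1), and in 13.3% of all 35116 windows. In GCLM it lay 26 to 34 bases before the start and in AIFM2 14 to 22 bases before it. The 250 bases before the start are shown for both genes, on the strand of the gene with the core in capitals, at chr1:93909431-93909680 (minus strand) and chr10:70132826-70133075 (minus strand).
GCLM: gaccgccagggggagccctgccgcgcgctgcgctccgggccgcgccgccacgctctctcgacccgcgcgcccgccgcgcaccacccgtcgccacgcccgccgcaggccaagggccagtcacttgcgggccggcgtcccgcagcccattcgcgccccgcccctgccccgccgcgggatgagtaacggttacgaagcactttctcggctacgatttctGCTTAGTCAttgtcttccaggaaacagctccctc
AIFM2: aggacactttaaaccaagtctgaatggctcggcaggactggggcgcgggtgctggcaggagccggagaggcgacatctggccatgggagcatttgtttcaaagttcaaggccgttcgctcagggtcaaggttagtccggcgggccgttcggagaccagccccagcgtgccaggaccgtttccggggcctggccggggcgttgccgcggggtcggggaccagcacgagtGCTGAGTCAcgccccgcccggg

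TXNRD1 has 2 annotated starts in the RefSeq table, and each of them had a core in its window. The cores are shown with 10 bases on each side, at chr12:104215670-104215698, chr12:104215761-104215789 and chr12:104286920-104286948 on the plus strand.
TXNRD1 first start: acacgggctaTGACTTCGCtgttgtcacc
TXNRD1 first start, over the start site: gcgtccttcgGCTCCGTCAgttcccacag
TXNRD1 second start: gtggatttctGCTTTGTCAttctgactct

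The level of each gene was read from the deposited FPKM, which are scaled for gene length by a method that is not stated. An order between genes therefore depends on the length used. GCLC has 8646 exonic bases but 3813 in its longest protein-coding transcript, and FTH1 has 2030 and 1229. For GCLM these are 5420 and 4857, and for FTL 878 and 878. FTL, the light chain of ferritin, and FTH1, the heavy chain with the ferroxidase site, ranked 1st and 2nd of the members in every library. NQO1, a quinone reductase, was 3rd in every library, and GCLC, the catalytic subunit of glutamate-cysteine ligase, and SRXN1, which restores overoxidized peroxiredoxins, were 9th and 10th. AIFM2 was 8th in every library, and the others in between changed places between libraries. HMOX1 was 4th in both SK-MEL-28 libraries and 7th and 6th in A375, where TXNRD1 was 4th. The SK-MEL-28 libraries had an FPKM of 1093 and 1180 for FTL, 404 and 441 for FTH1 and 385 and 351 for NQO1. The A375 libraries had 1840 and 1868 for FTL, 707 and 761 for FTH1 and 266 and 281 for NQO1. Ferritin was thus higher and NQO1 lower in both A375 libraries. TXNRD1 had an FPKM of 86.7 and 82.8 in SK-MEL-28 but of 163 and 133 in A375, and AIFM2 one of 13.0 and 15.4 against 9.07 and 8.69. SRXN1, at the other end, had an FPKM of 2.59 and 3.24 in SK-MEL-28 and of 2.92 and 2.29 in A375. Whether neighbours in this order differ cannot be tested within a library.

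**Figure D1:**
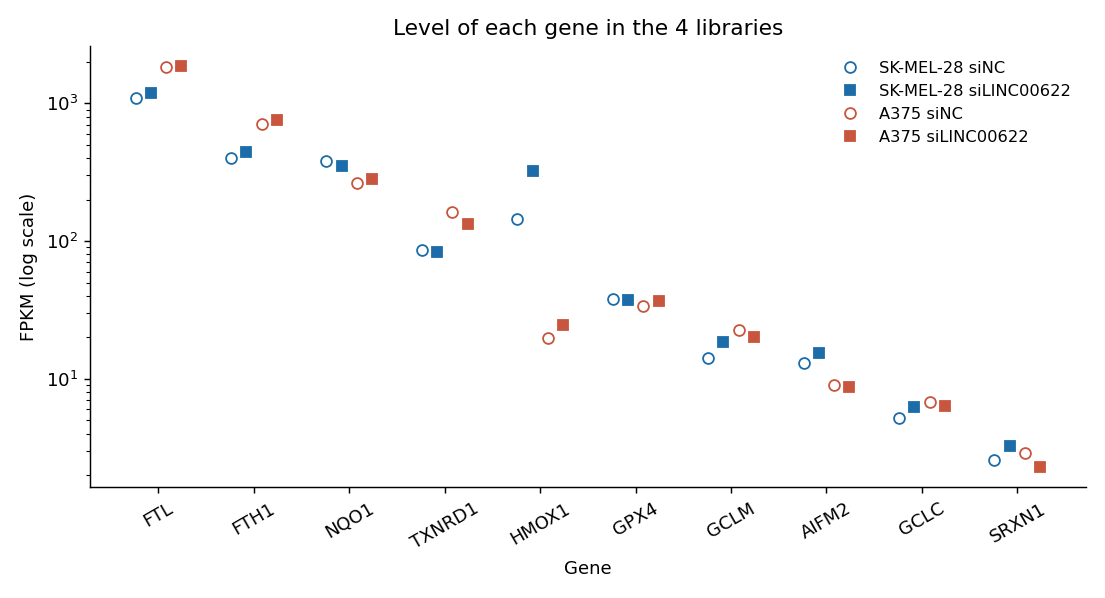
FPKM of the 10 genes (log axis) in the 4 libraries, with SK-MEL-28 in blue and A375 in red, and siNC as open circles and siLINC00622 as filled squares. HMOX1 is the gene with the widest spread, from 19.8 in A375 siNC to 323 in SK-MEL-28 siLINC00622, while FTL ranges from 1093 to 1868.

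To see how the genes stood after LINC00622 knockdown, the log2 ratio of siLINC00622 over siNC was computed in each line from the counts. HMOX1 was the single member past 1.5-fold, and only in SK-MEL-28. Past 1.5-fold higher were 1 of 10 members in SK-MEL-28, where 4.56% of all genes with at least 10 counts were, and 0 of 10 in A375, against 4.52% of genes. Past 1.5-fold lower were 0 members in either line, against 6.49% of genes in SK-MEL-28 cells and 4.34% in A375. The members' median log2 ratio was 0.20 for SK-MEL-28 cells and -0.01 in A375, beside a median over all genes of -0.0040 in SK-MEL-28 cells and 0.0043 in A375. Without HMOX1, the other 9 members lay between -0.12 and 0.40 in SK-MEL-28 and between -0.34 and 0.13 in A375.

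**Figure D2:**
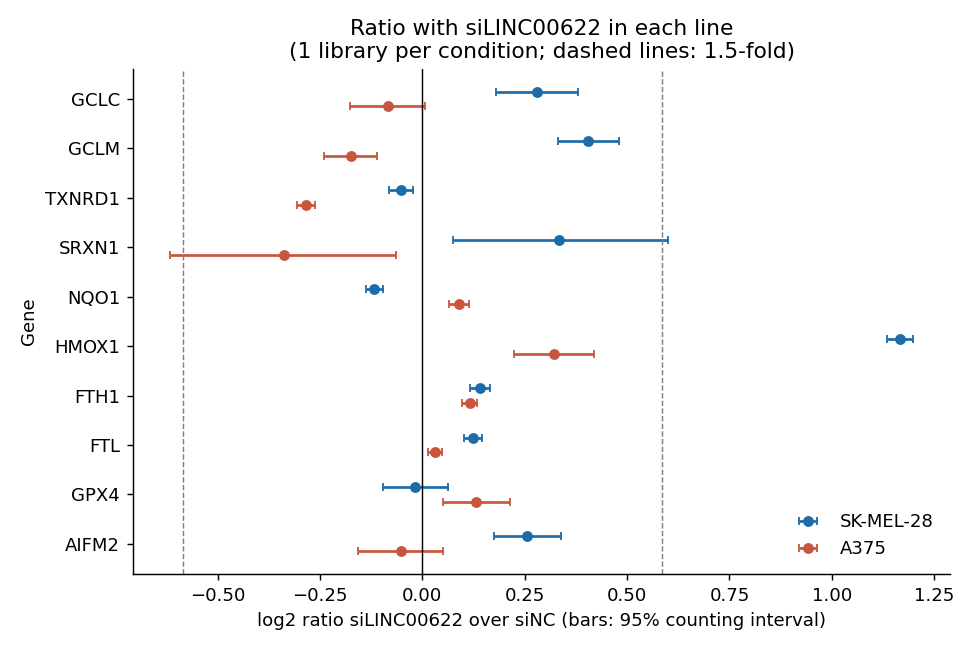
Log2 ratio of siLINC00622 over siNC for each gene in SK-MEL-28 (blue) and A375 (red), with bars for the 95% Clopper-Pearson interval of counting error and dashed lines at 1.5-fold. HMOX1 in SK-MEL-28 is the single point beyond a dashed line, and GCLC, GCLM, SRXN1 and AIFM2 lie to the right of 0 in SK-MEL-28 and to the left in A375.

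HMOX1 (ENSG00000100292), on the plus strand of chromosome 22 from 35380361 to 35394214 in GRCh38 (GENCODE 29, as for the other members), encodes heme oxygenase-1, which splits heme into biliverdin, carbon monoxide and iron. It had 11088 and 25430 counts in the siNC and the siLINC00622 library of SK-MEL-28, and 1430 and 2067 in A375. Its count was thus higher with siLINC00622 in both lines, and the SK-MEL-28 libraries lay above both A375 libraries. The log2 ratio was 1.17 for SK-MEL-28 cells (95% counting interval 1.134 to 1.199), a 2.24-fold higher level. In A375 it was 0.32 (0.22 to 0.42), or 1.25-fold higher. Among genes with at least 50 counts, the SK-MEL-28 ratio was the 36th highest of 12743 and that of A375 the 1529th highest of 13505. The 2 ratios differed by 0.84 on the log2 scale, a difference that could not be tested because 4 libraries leave no residual for an interaction.

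NQO1 (ENSG00000181019, chr16:69706996-69726951, minus strand), which reduces quinones with 2 electrons and is a common readout of NRF2 activity, had a ratio near 0 in both lines. Its counts were 37855 and 35664 in the siNC and the siLINC00622 library of SK-MEL-28, and 24704 and 30401 in A375. The log2 ratio was -0.12 for SK-MEL-28 cells (-0.14 to -0.10) and 0.09 in A375 (0.07 to 0.11).

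GCLC and GCLM encode the catalytic and the modifier subunit of glutamate-cysteine ligase, the rate-limiting enzyme of glutathione synthesis. GCLM (ENSG00000023909, chr1:93885205-93909456, minus strand) had 2529 and 3422 counts in SK-MEL-28 cells and 3861 and 3955 in A375, in the order siNC and siLINC00622. The log2 ratio of siLINC00622 over siNC was 0.40 for SK-MEL-28 cells (0.33 to 0.48) and -0.17 in A375 (-0.24 to -0.11). GCLC (ENSG00000001084, chr6:53497341-53616970, minus strand) had 1477 and 1832 counts in SK-MEL-28 cells and 1827 and 1992 in A375. This gave a log2 ratio of 0.28 (0.18 to 0.38) in SK-MEL-28 and -0.08 (-0.18 to 0.01) in A375. Both subunits were thus higher with siLINC00622 in SK-MEL-28 and at or below the control in A375. The FPKM of GCLM divided by that of GCLC was 2.72 and 2.97 in SK-MEL-28 cells, and 3.36 and 3.15 in A375. The size of this quotient depends on the gene lengths behind the FPKM, so only its comparison between libraries can be read.

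TXNRD1, the cytosolic selenoenzyme that reduces thioredoxin, and SRXN1, sulfiredoxin, belong to the thioredoxin and peroxiredoxin system. TXNRD1 (ENSG00000198431, chr12:104215779-104350305, plus strand) had 19255 and 18980 counts in SK-MEL-28 cells and 34183 and 32452 in A375. Its log2 ratio was -0.05 for SK-MEL-28 cells (-0.08 to -0.02) and -0.28 in A375 (-0.31 to -0.26), and it was the single member lower with siLINC00622 in both lines. SRXN1 (ENSG00000271303, chr20:646615-653370, minus strand) had the fewest counts, with 217 and 280 in SK-MEL-28 cells and 231 and 211 in A375. The log2 ratio of siLINC00622 over siNC was 0.33 for SK-MEL-28 cells (0.08 to 0.60) and -0.34 in A375 (-0.62 to -0.06). In GENCODE 29, 2292 of the 2698 exonic bases of SRXN1 are shared with the protein-coding gene AL121758.1 on the same strand, which is not among the listed genes, so the counts given to SRXN1 depend on how the authors' counting treated such reads.

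Ferritin stores iron in a shell of heavy and light chains, and its translation is known to be held back by iron regulatory proteins, a step that RNA levels do not show. FTH1 (ENSG00000167996, chr11:61959718-61967660, minus strand) had 26776 and 30165 counts in SK-MEL-28 cells and 44289 and 55488 in A375. This gave a log2 ratio of 0.14 for SK-MEL-28 cells (0.12 to 0.16) and 0.12 in A375 (0.10 to 0.13). FTL (ENSG00000087086, chr19:48965301-48966878, plus strand) had 31532 and 35103 counts in SK-MEL-28 cells and 50113 and 59197 in A375. Its log2 ratio was 0.12 for SK-MEL-28 cells (0.10 to 0.15) and 0.03 in A375 (0.01 to 0.05). Both chains were higher with siLINC00622 in both lines, by at most 1.10-fold. Together they took 0.176% and 0.191% of the counts of the SK-MEL-28 libraries and 0.302% and 0.315% of those of A375. The FPKM of FTH1 divided by that of FTL was between 0.369 and 0.407 in the 4 libraries, a size that again depends on the gene lengths used.

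Ferritin genes have many processed pseudogenes that could take a part of their reads. The table lists 8 FTH1 and 2 FTL pseudogenes, which held between 1.14% and 1.22% of the summed FTH1 counts and between 0.0861% and 0.155% of the summed FTL counts. Adding them left the log2 ratios of FTH1 at 0.14 and those of FTL at 0.12 in SK-MEL-28, and at 0.12 and 0.03, respectively, in A375. FTH1 also shares 1267 of its 2030 exonic bases with BEST1 on the opposite strand, and the strand setting of the counting is not given in the sources used here. BEST1 had 2832 and 3422 counts in SK-MEL-28 cells and 36 and 30 in A375, where FTH1 had 44289 and 55488, so few reads of FTH1 were counted for BEST1 in A375. How reads in the overlap were assigned was not tested. NQO1 shares 575 exonic bases with an antisense gene, GCLC 529 and 7 bases with a pair of noncoding genes and AIFM2 11 bases with a gene on the other strand. GCLM, HMOX1, TXNRD1, GPX4 and FTL share 0 exonic bases with another annotated gene.

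GPX4 and AIFM2 encode the main suppressors of ferroptosis that act apart from each other: GPX4 reduces lipid hydroperoxides with glutathione, and AIFM2, also known as FSP1, regenerates the lipid-soluble antioxidant ubiquinol. GPX4 (ENSG00000167468, chr19:1103926-1106791, plus strand) had 2551 and 2576 counts in SK-MEL-28 cells and 2150 and 2724 in A375. The log2 ratio of siLINC00622 over siNC was -0.02 for SK-MEL-28 cells (-0.10 to 0.06) and 0.13 in A375 (0.05 to 0.21). AIFM2 (ENSG00000042286, chr10:70098223-70132934, minus strand) had 2212 and 2699 counts in SK-MEL-28 cells and 1457 and 1624 in A375. This gave a log2 ratio of 0.26 for SK-MEL-28 cells (0.17 to 0.34) and -0.05 in A375 (-0.16 to 0.05).

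The ratios had opposite signs for 6 of the 10 members, against 37.8% of the 14721 genes that reached 10 counts in both lines. Of these 6, GCLC, GCLM, SRXN1 and AIFM2 had ratios above 0 in SK-MEL-28 and below 0 in A375, and NQO1 and GPX4 the other way round. The counting interval included 0 for GCLC and AIFM2 in A375 and for GPX4 in SK-MEL-28, so the opposite signs were apart from counting error in both lines for GCLM, SRXN1 and NQO1 only. HMOX1, FTH1 and FTL were higher and TXNRD1 was lower in both. Counting error alone did not cover the ratio of 9 members in SK-MEL-28 cells and 8 in A375, but such an interval is narrow at high counts and leaves out the variation between cultures.

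To ask which members differed alike in both lines, siLINC00622 was compared with siNC across the 4 libraries with the line as a block, by edgeR's quasi-likelihood test over 16258 genes. Of the 10 members 0 had an adjusted p under 0.05, against 0.228% of the genes tested, and 1 member, HMOX1, had an unadjusted p under 0.05, against 14.6% of genes. HMOX1 had a log2 difference of 0.77 ± 0.18 (approximate SE), higher in 2 of 2 lines, with an adjusted p of 0.144 in edgeR. The ratios behind it were 1.17 in SK-MEL-28 and 0.32 in A375. This SE draws on a spread shared over genes and does not measure how far these ratios lie apart. With the Wald test of DESeq2 the adjusted p of HMOX1 was 0.00525, so the call depends on the tool. Over the alternatives that kept the line in the fit, it ran from this value to 0.203 in edgeR with library totals. Fits without the line did not call HMOX1, but they put its difference between the lines into the spread and cannot decide this. The other 9 members had log2 differences between -0.16 and 0.14, with adjusted p in edgeR between 0.436 and 0.991. The targeted LINC00622 was not called by this test either, with a log2 difference of -1.05 ± 0.20 and an adjusted p of 0.113 in edgeR. This test has 1 residual degree of freedom and treats the lines as the repeats, so a p that misses the threshold does not show that a gene stayed the same.

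Between the lines, HMOX1 stood far higher in SK-MEL-28 and both ferritin chains were higher in A375. In the same edgeR fit, with the treatment as covariate, 3 members were higher in SK-MEL-28 (HMOX1, AIFM2 and NQO1), against 33.8% of genes, and 3 were lower (FTH1, TXNRD1 and FTL), against 35.1% of genes. Both shares of the members are near those of all genes, and 4 members did not pass. The 2 libraries of a line differ in treatment and are not labelled as separate cultures. No group has a repeat library, so these p-values do not measure the spread between libraries of a group. The spread behind them is the difference of the treatment ratios between the lines, combined with a spread shared over genes.

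HMOX1 had the widest difference of the members, 3.46 ± 0.20 on the log2 scale (edgeR adjusted p = 1.44e-05). The difference was 3.05 between the siNC libraries and 3.87 between the siLINC00622 libraries. AIFM2 was higher in SK-MEL-28 by 0.84 ± 0.11 (edgeR adjusted p = 0.000555), and NQO1 by 0.59 ± 0.08 (edgeR adjusted p = 0.000858). FTH1 was lower in SK-MEL-28, with a log2 difference of -0.63 ± 0.07 (edgeR adjusted p = 0.000282). TXNRD1 likewise had -0.63 ± 0.08 (edgeR adjusted p = 0.000641) and FTL -0.54 ± 0.07 (edgeR adjusted p = 0.000612).

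Of the members that did not pass, GPX4 had a log2 difference of 0.25 ± 0.10 (edgeR adjusted p = 0.0510), and its adjusted p in edgeR was 0.0376 with DESeq2 size factors and 0.0472 without a filter on low counts. GCLM had -0.24 ± 0.14, and it was -0.51 between the siNC libraries but 0.05 between the siLINC00622 libraries. SRXN1 had 0.33 ± 0.21, with 0.0077 between the siNC libraries and 0.66 between the siLINC00622 libraries. GCLC had -0.04 ± 0.12. The melanocyte lineage markers differed in the same comparison, with 8 of 8 higher in SK-MEL-28 and a median log2 difference of 6.42, and their part in it was not tested. The lines cannot be told apart from anything else that differs between single cultures, and in bulk RNA a level per cell and a share of expressing cells cannot be told apart either.

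**Figure D3:**
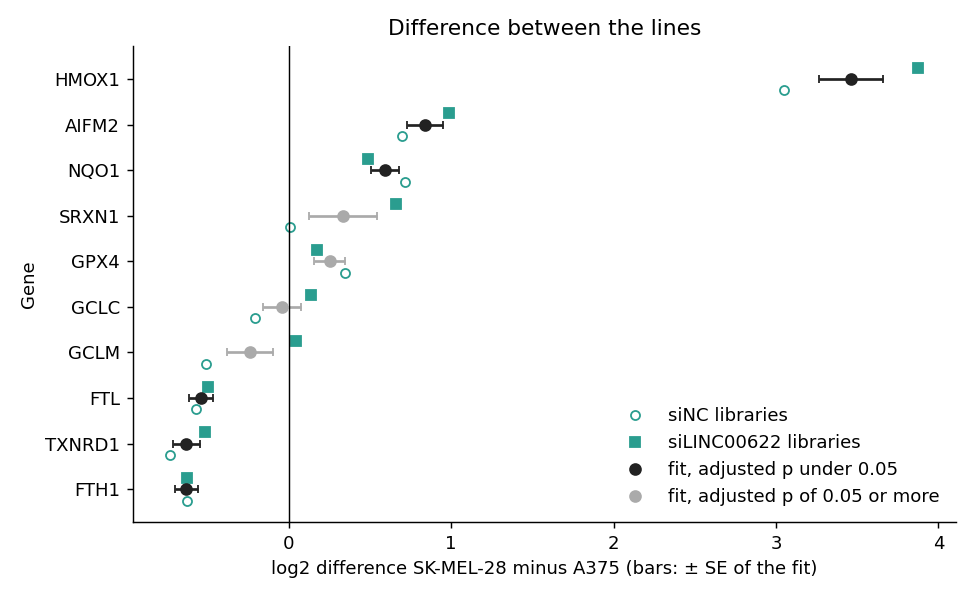
Log2 difference SK-MEL-28 minus A375 of each gene from the fit over 4 libraries (black where the adjusted p is under 0.05, grey otherwise, bars ± SE), with the siNC pair (open circles) and the siLINC00622 pair (squares) apart. HMOX1 stands at 3.46, far from the other 9 genes, which lie between -0.63 and 0.84.

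The regulators of NRF2 were read next. Of 12 regulators, 1 was past 1.5-fold higher and 0 lower in SK-MEL-28, where 4.56% and 6.49% of all genes were. In A375 0 regulators were past it in either direction, against 4.52% of genes higher and 4.34% lower. Across the lines edgeR called 0 of 12, against 0.228% of genes, and 1 had an unadjusted p under 0.05, against 14.6%. These counts are near the background. The median log2 ratio was 0.11 for SK-MEL-28 cells and -0.08 in A375. NFE2L2, the gene of NRF2 itself, had 6855 and 5922 counts in SK-MEL-28 cells and 2952 and 3165 in A375, with log2 ratios of -0.24 and -0.11. KEAP1 had ratios of 0.18 and -0.06, and BACH1, the repressor of HMOX1, ratios of 0.16 and 0.19. MAFF, a small MAF protein, was the regulator past 1.5-fold, from 966 to 1810 counts in SK-MEL-28 with a log2 ratio of 0.87 (0.76 to 0.99), beside -0.23 in A375. Between the lines, 7 of 12 regulators were higher in SK-MEL-28, against 33.8% of all genes, and 1 was lower, against 35.1%. NFE2L2 differed by 1.23 ± 0.09 (edgeR adjusted p = 4.14e-05), RBX1, a subunit of the ligase that holds KEAP1, by 1.04 ± 0.10, and BACH1 by 0.43 ± 0.09, while KEAP1 had -0.02 ± 0.10.

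Of 33 other NRF2 targets, 31 were listed. In SK-MEL-28, 4 of the 30 with at least 10 counts were past 1.5-fold higher and 2 lower, against 4.56% and 6.49% of all genes. In A375 1 of 31 was higher and 1 lower, against 4.52% and 4.34%. The median log2 ratio was 0.10 and 0.05 in the same order, and across the lines edgeR called 0 of 31 (0.228% of all genes), while 8 had an unadjusted p under 0.05 (14.6% of all genes). ME1, the malic enzyme that yields NADPH, had 1216 and 2179 counts in SK-MEL-28 cells and 1912 and 3535 in A375, with log2 ratios of 0.81 and 0.68 and an adjusted p of 0.0559 in edgeR across the lines. CBR1, a carbonyl reductase, had log2 ratios of -1.02 and -0.77 and the same adjusted p of 0.0559 in edgeR. FECH, which inserts iron to complete heme, had ratios of 0.63 and 0.41.

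OSGIN1, an oxidative stress response gene, had log2 ratios of 0.59 and -0.20 and counts of 2138 and 3293 in SK-MEL-28 and of 708 and 714 in A375. SLC7A11, the cystine transporter that feeds glutathione synthesis, had 2724 and 2838 counts in SK-MEL-28 cells and 5881 and 4879 in A375, with ratios of 0.03 and -0.48. It was lower in SK-MEL-28 than in A375 by a log2 difference of -0.78 ± 0.13 (edgeR adjusted p = 0.00180). ABCC3 had 4 and 11 counts in SK-MEL-28 cells and 620 and 1066 in A375, so its ratio of 1.09 in SK-MEL-28 has an interval from -0.33 to 3.53 and its direction could not be resolved at this depth. AKR1C3 had 3 and 6 counts in SK-MEL-28 cells and 535 and 625 in A375. GSTM3 had 60 and 33 counts in SK-MEL-28, a ratio of -0.85, and 480 and 627 in A375, a ratio of 0.18. Between the lines 11 of the 31 targets were higher in SK-MEL-28 and 14 lower, against 33.8% and 35.1% of all genes.

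**Figure D4:**
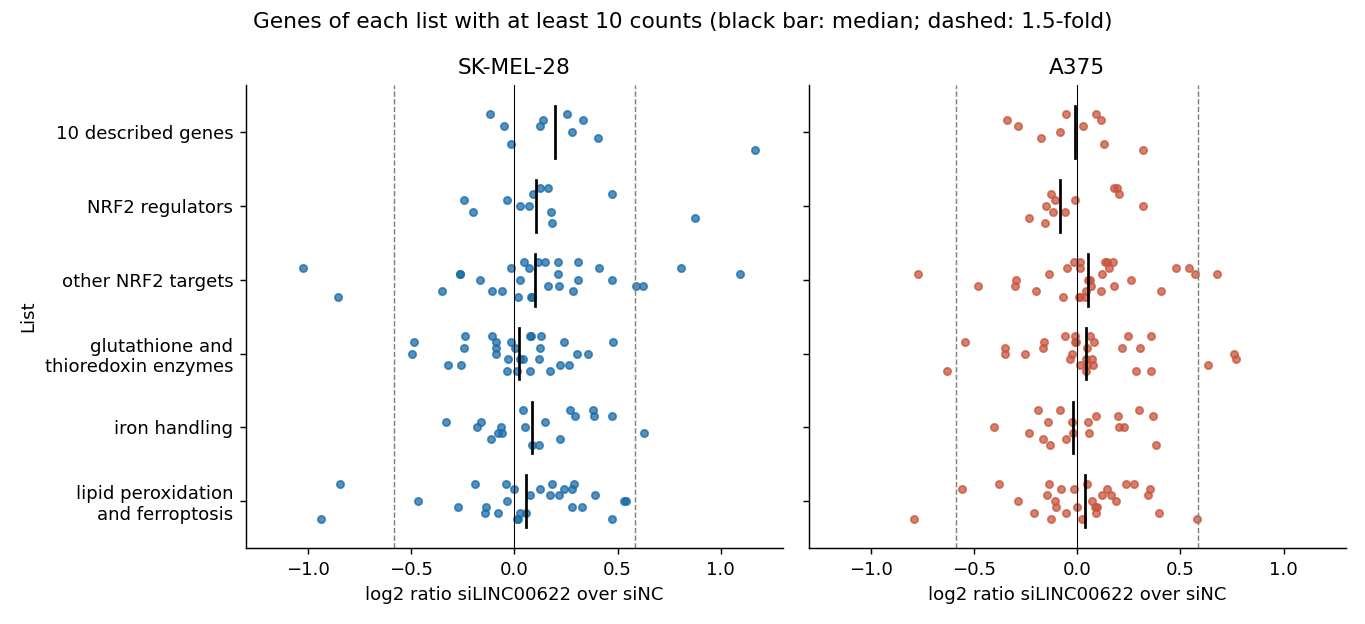
Log2 ratio of siLINC00622 over siNC for the genes of each list with at least 10 counts in SK-MEL-28 (left) and A375 (right), with the median as a black bar and 1.5-fold as dashed lines. The medians of the 6 lists lie between 0.02 and 0.20 in SK-MEL-28 and between -0.08 and 0.05 in A375.

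Of 32 enzymes of the glutathione and thioredoxin systems 31 were listed. Of those with at least 10 counts, 0 of 30 were past 1.5-fold in SK-MEL-28, against 4.56% of all genes higher and 6.49% lower. In A375 3 of 31 were higher and 1 lower, against 4.52% and 4.34%. GSR, which reduces oxidized glutathione, had ratios of -0.26 and -0.63, from 2913 to 2174 counts in A375. GLRX, a glutaredoxin, had ratios of 0.22 and 0.64. GPX3 went from 340 to 667 counts in A375, a ratio of 0.76, with 16 and 11 counts in SK-MEL-28, and GPX7 from 49 to 98 counts in A375, with 1 and 0 in SK-MEL-28. PRDX2, an abundant peroxiredoxin in many cells, had 24 and 32 counts in SK-MEL-28 cells and 2843 and 3383 in A375, a log2 difference of -6.62 ± 0.15 (edgeR adjusted p = 5.70e-07). In all 16 of 31 enzymes were higher in SK-MEL-28 and 9 lower, against 33.8% and 35.1% of all genes. For the treatment across the lines edgeR called 0 of 31 (0.228% of all genes), and 4 had an unadjusted p under 0.05 (14.6%).

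Of 25 iron handling genes 19 were listed, and SLC40A1, the iron exporter ferroportin, was not among them. TFRC, the transferrin receptor that takes up iron, was the single gene past 1.5-fold in either line, against 4.56% of all genes higher in SK-MEL-28 and 4.52% in A375, from 17539 to 27730 counts in SK-MEL-28 with a log2 ratio of 0.63 (0.60 to 0.66), beside 0.06 in A375. NCOA4, the receptor that carries ferritin to the lysosome, had ratios of -0.16 and 0.05. ACO1, an iron regulatory protein, had ratios of 0.38 and 0.30, and was 1.71 ± 0.09 higher in SK-MEL-28 on the log2 scale (edgeR adjusted p = 9.86e-06). FLVCR1, a heme exporter, was lower there by -1.59 ± 0.10 (edgeR adjusted p = 2.57e-05). The list's median ratio was 0.08 in SK-MEL-28 cells and -0.02 in A375. For the treatment edgeR called 0 of 19 (0.228% of all genes), and 5 had an unadjusted p under 0.05 (14.6%). Between the lines 10 of 19 were higher in SK-MEL-28 and 4 lower, against 33.8% and 35.1% of all genes.

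Of 36 genes of lipid peroxidation and ferroptosis 30 were listed, and 0 were past 1.5-fold higher in either line, against 4.56% (SK-MEL-28) and 4.52% (A375) of all genes. Past 1.5-fold lower were 2 of 29 in SK-MEL-28, against 6.49% of genes, and 1 of 30 in A375, against 4.34%. MBOAT2, a phospholipid acyltransferase, had ratios of -0.94 and -0.38, with 1460 and 779 counts in SK-MEL-28. NFS1, which supplies sulfur for iron-sulfur clusters, had ratios of -0.84 and -0.56, and MBOAT1 of -0.14 and -0.79. ACSL4, which loads polyunsaturated fatty acids for phospholipids, had ratios of 0.12 and 0.35 and was 1.23 ± 0.10 higher in SK-MEL-28 (edgeR adjusted p = 6.10e-05). SAT1, a polyamine acetyltransferase, was 3.01 ± 0.17 higher in SK-MEL-28 (edgeR adjusted p = 1.43e-05), with ratios of -0.08 and 0.58. CDO1 had 0 counts in both SK-MEL-28 libraries, where a count of 0 allows up to 3, and 50 and 47 in A375. For the treatment across the lines edgeR called 0 of these 30 genes (0.228% of all genes), and 9 had an unadjusted p under 0.05 (14.6%). Between the lines 17 of 30 were higher in SK-MEL-28 and 9 lower, against 33.8% and 35.1% of all genes.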

How the data were processed

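Poly(A)-enriched RNA of 4 libraries was sequenced as paired-end reads, with 1 library per condition. The processing notes of the submitters name HISAT2, TopHat2, Bowtie2 and HISAT and the build hg19, while the counter and the annotation are not given in the sources used here. The authors deposited raw read counts for each gene, and beside them CPM, which give the library totals used here. The deposited FPKM are scaled for gene length and depth, by a method that is not stated. TPM columns were not used. Gene positions are those of GENCODE 29, in GRCh38.

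The members and lists were chosen with earlier results of these data known. Ratios within a line used TMM scaling (edgeR 4.0.16, R 4.3.3) and a prior count of 2, with exact Clopper-Pearson intervals at 95%, which cover counting error only since reads carry no molecular identifiers. A change above 1.5-fold counted as past the criterion where either library of that line had 10 counts or more, and no test was possible. Across the 4 libraries, line and treatment were fitted together by the quasi-likelihood test after filterByExpr, with Benjamini-Hochberg adjustment over 16258 genes and calls at 0.05. The SE is the log2 difference divided by the square root of the F statistic. Alternatives were other scalings, prior counts of 0.5 and 5, FPKM with pseudocounts of 1 and 0.1, filters, DESeq2 1.42.0, limma 3.58.1, and fits without the other factor, also without each library in turn. The scripts were tested on simulated data. Named are the 10 members, LINC00622, 8 further genes (NFE2L2, KEAP1, BACH1, SLC7A11, TFRC, SLC40A1, NCOA4 and ACSL4), listed genes past 1.5-fold with at least 50 counts, and the 2 called genes of each list with the largest difference between the lines. Promoters and siRNA targets were read from RefSeq tables and from the study's oligonucleotide list. Sequences were matched in Python 3.11.15. LINC00622 and the other cell markers served as checks of the labels.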

Additional observations from a re-analysis of the deposited data

Results flagged for a closer look

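SRXN1 had ratios of opposite sign in the 2 lines, which brought it up for a closer look. With siLINC00622 over siNC, SK-MEL-28 had a log2 ratio of 0.33 and A375 one of -0.34, both past 1.2-fold and with counting intervals apart from 0. The difference between the ratios, 0.67, was not tested, since each line has 1 library per condition. SRXN1 has the fewest counts of the members, between 211 and 280.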

How the results depend on the processing

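The log2 ratios within a line kept their direction under the 3 other scalings, and 160 of 160 alternative values of these ratios moved by no more than their counting error. Most of these values could hardly move. Library totals and DESeq2 size factors shifted the median of all genes in SK-MEL-28 by -0.014 and 0.011. Summing ferritin pseudogenes changes the counts of FTH1 and FTL only among the members. The tally is thus no measure of the variation between cultures. With a p-value from edgeR's exact test at an assumed dispersion of 0.1 added to the fold criterion, 0 members passed in SK-MEL-28 instead of 1, since HMOX1 no longer did. With 1 library per condition the assumed value decides this outcome, so it is no check of HMOX1. The common dispersion fitted over the 4 libraries was far lower, at 0.0089. That value comes from the fit of line and treatment without a repeat library, so it does not measure the variation between cultures either. For siLINC00622 against siNC across both lines, DESeq2's Wald test called 1 member, HMOX1, instead of 0. It called 302 of the 8805 genes to which it gave an adjusted p, and SRXN1 was given none. Without a replicate block for the line, 0 members were called, but the difference between the lines then enters the spread. Over all genes that comparison called 37 of 16258 genes in edgeR (13 higher), 1 with library totals (1 higher) and 51 with DESeq2 size factors. It called 302 of 8805 with DESeq2's Wald test, 121 of 17755 without a filter, 1 with limma on FPKM and 0 without the block. Its number of calls thus rests on the setting. In the same comparison NQO1, at -0.0035, had 0.0055 with DESeq2 size factors and with the Wald test, and SRXN1, at 0.012, had -0.0099 with library totals and -0.0061 with limma, none of them called. For SK-MEL-28 against A375, between 6 and 7 members were called with every other scaling, filter and tool tried. About as large a share of all genes was called there. It ran from 8679 of 17410 genes with DESeq2's Wald test to 11507 of 16258 with limma on FPKM. Library totals shifted the median of all genes by -0.17 there, and the 6 called members kept their direction. GPX4 passed with DESeq2 size factors and without a filter, and GCLM with limma on FPKM, where its value was -0.38. The causes were not tested. In the fit of line and treatment, leaving out a library leaves 0 residual degrees of freedom. Each factor alone was therefore fitted without each library, an alternative chosen after seeing the data, in which a lone sample is assumed to vary like the other group. For the line alone, the 6 members called before kept their direction. GCLM had -0.45 without SK-MEL-28 siLINC00622, and GCLC turned to 0.11 without SK-MEL-28 siNC. For the treatment alone without a replicate block, 0 members and 0 genes were called without any library (2 to 7 genes had an unadjusted p under 0.05 in edgeR), and the lines are then unequally represented, so the difference between the lines enters the values by construction. These turned sign for every member under at least 1 left-out library. Without SK-MEL-28 siLINC00622, HMOX1 had -1.88, TXNRD1 0.040, SRXN1 -0.34, GPX4 -0.041 and AIFM2 -0.43. Without SK-MEL-28 siNC, GCLC had -0.0075, GCLM -0.14, NQO1 0.36, FTH1 -0.16 and FTL -0.19. Without A375 siLINC00622, NQO1 had 0.19, FTH1 -0.21 and FTL -0.19. Without A375 siNC, TXNRD1 had 0.23, GPX4 -0.099 and AIFM2 -0.15. Depth limits SRXN1 most among the members.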
